A study of Mus musculus with 4 samples.

Results

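Liver X receptors (LXRs) are nuclear receptors that sense sterol excess. Bound to oxysterols and paired with a retinoid X receptor (RXR), they switch on genes that carry cholesterol out of the cell, remodel membrane phospholipids and limit the uptake of lipoproteins, the counterpart of the SREBP2 program that makes and imports cholesterol. The genes described here are 8 members of this response in hair follicle stem cells (HF-SCs): the receptors *Nr1h2* (LXRβ) and *Nr1h3* (LXRα), the cholesterol exporters *Abca1* and *Abcg1*, the lipoprotein receptor *Scarb1*, the lipid acceptor *Apoe*, the ubiquitin ligase *Mylip* and the phospholipid acyltransferase *Lpcat3*. They were listed by name and kept where the mean normalized count was above 0, which held for 8 of 8, among 17044 such genes of the 24421 in the table.

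RNA was sequenced from FACS-purified HF-SCs of the back skin of C57BL/6 mice at postnatal day 44, in 2 libraries of control mice (2-day Ctrl) and 2 of *miR-205* inducible mice (2-day miR-205 inducible). All mice carried K14-H2BGFP, a nuclear label driven by the keratin 14 promoter, and the groups were matched for sex. In inducible mice a *pTRE2-miR-205* transgene responds to *Krt14*-rtTA, so induction covers keratin 14-expressing skin epithelium, not HF-SCs alone. Per the study's methods the transgene was injected into FVB mice, whereas the labels give the strain as C57BL/6. Inducible mice had doxycycline, the inducing drug, in their chow for 2 days from postnatal day 42. The labels call the control mice untreated, whereas the extraction protocol has both groups fed doxycycline.

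The level of each gene is the authors' mean normalized count over all 4 libraries. That mean, printed to 15 digits, also fixed the whole reads behind it in each library for every gene with a mean up to 1000, because 1 and only 1 set of 4 whole numbers gave the printed value in 14591 of 14591 genes. This gave reads per library for 6 members, and *Abca1* and *Apoe*, above that limit, have only their mean. The 4 libraries are called A, B, C and D in order of rising size factor, the number by which the authors' DESeq2 run divided a library's counts, with values of 0.716, 0.966, 1.18 and 1.24. If every library held the genes in the pooled proportions, these correspond to 9373975 to 16182075 counted reads. Nothing in the column used ties A to D to a mouse or a group, so induced and control libraries are not compared here, and the spread given below includes any effect of induction. Library A held the lowest summed markers of all 7 other cell types examined. For adipocytes, the sebaceous gland and the suprabasal epidermis this rested on 1 marker each. Calls of members that rest on library A are given with and without it, whereas the counts of calls by list include it.

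The labelled cell type was checked against its markers. All 10 HF-SC and basal markers had a mean of at least 100, where the median of all genes above 0 was 117. Of the suprabasal markers 3 of 3 reached that bar too, of the fibroblast markers 5 of 6 and of the melanocyte markers 3 of 4. The bar therefore does not identify the cells. The median per kb of the HF-SC and basal list was 35.1 times that of all genes, against 21.1 for suprabasal and 9.23 for fibroblast markers. In that list *Krt15* had a mean of 119883 and *Cd34* 14575. Only 1 of the 10, *Tcf7l1*, has reads per library, with 670, 604, 569 and 518 normalized in A to D, highest in A. Markers of other cells were present too, up to *Krt10* of the suprabasal epidermis at 7246 and *Col1a1* of fibroblasts at 5186. Those with reads per library are set beside the members below. In bulk RNA, a change in the number of cells of a type and a change in RNA per cell cannot be told apart.

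The induced molecule is shown because its seed, bases 2 to 8, decides which 3′UTRs it can pair with. The mature mouse sequence (RefSeq, GRCm38.p6, chr1:193507503-193507524, minus strand) has the seed in capitals.

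mmu-miR-205-5p: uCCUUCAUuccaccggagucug

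No member carried the complement of this seed, ATGAAGG, in its longest annotated 3′UTR (GENCODE vM1), 0 of 8, where 11.8% of 15261 genes with a 3′UTR carried it. The shorter match to bases 2 to 7, TGAAGG, occurred once each in *Nr1h3* and *Mylip*, against 36.6% of all genes. Both windows are shown with the match in capitals, at base 103 of a 3′UTR of 275 bases in *Nr1h3* and at base 790 of 1509 in *Mylip*.

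Nr1h3: tgggagctgggTGAAGGagagagcctt

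Mylip: agtagcttcctTGAAGGaaaaagatga

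In both windows an A follows the match, and the longer form TGAAGGA was not searched for in the members or over all genes. Such a match is a description of the letters and not evidence of pairing. The LXR-RXR dimer binds a direct repeat of AGGTCA spaced by 4 bases (DR4). Promoters from 250 bases before to 50 after a start site were found for 6 of 8 members. None of these 6 had this repeat on either strand with at most 2 of its 12 fixed letters different, where 3.47% of 27018 genes did. At that share 6 promoters are too few for the absence to set the members apart. Sequence outside this window was not searched. With 3 differences allowed, 24.5% of genes and 1 member, *Abca1*, had a match, 67 to 52 bases before the start site. It is shown on the gene's strand (RefSeq, GRCm38.p6, chr4:53159940-53159969, minus strand), with the match in capitals.

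Abca1: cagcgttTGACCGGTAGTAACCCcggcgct

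Read on the other strand the match is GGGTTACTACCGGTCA, 3 of 12 fixed letters away from the repeat. At that tolerance nearly 1 promoter in 4 holds one, and binding was not measured.

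LXRβ was the receptor transcript of these cells, and LXRα was near the limit of detection. *Nr1h2* (chromosome 7, 44549616 to 44553968) had a mean normalized count of 896, at percentile 84.0 of genes with a mean above 0. *Nr1h3* (chromosome 2, 91184061 to 91202829) had 6.24, at percentile 22.3. Per kb of exon, the scale on which levels of different genes are compared, *Nr1h2* had 266 and *Nr1h3* 2.48, a ratio of 107. These and the other gene positions are those of the RefSeq table of GRCm38.p6, the assembly that the labels call mm10.

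*Nr1h2* had 585 reads in A, 874 in B, 1129 in C and 1121 in D, or normalized counts of 817, 904, 958 and 907. A was the lowest library and the other 3 lay close together. *Nr1h3* had 3, 7, 15 and 1 reads in the same order, or 4.19, 7.24, 12.7 and 0.809 normalized. Its highest value was in C and its lowest in D, the deepest library. *Nr1h3* made up 0.510% of the reads of both receptors in A (95% Clopper-Pearson interval 0.105 to 1.48). In B the share was 0.795% (0.320 to 1.63), in C 1.31% (0.736 to 2.15) and in D 0.0891% (0.00226 to 0.496). The intervals cover counting error only, and those of C and D do not overlap. The highest upper bound was 2.15%.

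The partners of the receptors were abundant. RXRα (*Rxra*) had a mean of 3034, or 555 per kb, and RXRβ (*Rxrb*) 706, or 191 per kb, while RXRγ (*Rxrg*) had 5.09, or 2.21 per kb. Thus 1 LXR and 1 of 3 RXR genes were near 0. The corepressor *Ncor1* had 220 per kb. Of the 9 genes of the list of RXRs and coregulators, 8 had a mean of at least 100, where the median of all genes above 0 was 117. The list's median per kb was 3.72 times that of all genes.

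*Apoe* and *Abca1* led the effectors of cholesterol efflux. *Apoe* (chromosome 7, 19696244 to 19701310), which encodes the apolipoprotein that accepts exported lipid, had a mean normalized count of 57762, at percentile 99.9 of genes above 0, and 29173 per kb. *Abca1* (chromosome 4, 53030789 to 53159988), the transporter that loads cholesterol onto lipid-poor apolipoproteins, had 5595, at percentile 97.9, and 540 per kb. *Apoe* stood 54.0 times above *Abca1* per kb of all exons, 76.4 times with the longest transcript as length, 232 times with the shortest coding transcript and 10.3 times in normalized counts. *Abcg1* (chromosome 17, 31057694 to 31117984), which passes cholesterol to mature HDL, had 92.0, at percentile 46.9, and 22.6 per kb. The level of *Abca1* per kb was 23.9 times that of *Abcg1*. *Scarb1* (chromosome 5, 125277087 to 125341094), the HDL receptor SR-BI, which moves cholesterol in both directions across the membrane, had 116, at percentile 49.9, and 18.4 per kb. That level depends on length, at 37.5 per kb with the longest transcript and 342 with the shortest coding one. Among genes with a mean over 50, *Scarb1* lay at percentile 17.5 and *Abcg1* at 12.4.

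The relatives of these transporters and receptors covered a wide range. *Abca2* and *Abca7* had 117 and 72.2 per kb, and *Abcg4* had 4.67. *Abcg5* had 3 reads in all 4 libraries together, and *Abcg8* was at 0. The lysosomal relative of *Scarb1*, *Scarb2*, had 479 per kb and the fatty acid receptor *Cd36* 9.64. *Apoc1*, which lies in the same gene cluster as *Apoe*, had 1076 per kb, whereas *Apoc2* was at 0.

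*Mylip* and *Lpcat3* were expressed at middle to high levels. *Mylip* (chromosome 13, 45389742 to 45411940), also called IDOL, marks lipoprotein receptors for degradation. It had a mean of 902, at percentile 84.1, and 295 per kb. *Lpcat3* (chromosome 6, 124663094 to 124704716), which places polyunsaturated fatty acids on membrane phospholipids, had 509, at percentile 74.8, and 156 per kb. Of the receptors that *Mylip* marks, *Lrp8* had 31.9 per kb and *Vldlr* 23.2. Among the relatives of *Lpcat3*, *Lpcat2* had 150 per kb, *Mboat1* 55.3, *Mboat2* 52.7, *Lpcat4* 46.4 and *Lpcat1* 16.6, so that *Lpcat3* and *Lpcat2* were the most abundant of the 6 acyltransferases.

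**Figure D1:**
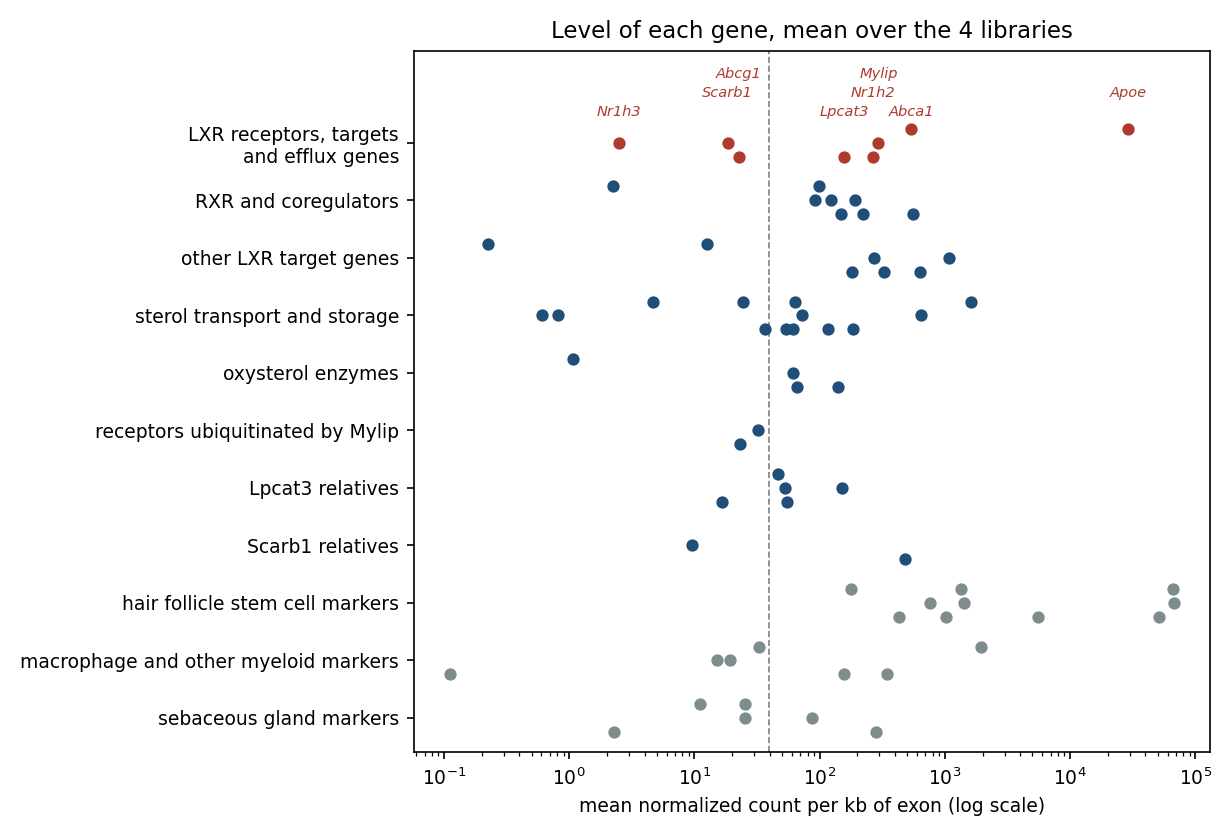
The level of each gene as the authors' mean normalized count over the 4 libraries per kb of exon, on a log axis, with 1 point per gene and 1 row per list (red, the 8 members; blue, other genes of the pathway that are reported here; grey, cell type markers). The dashed line is the median of all genes, 39.5 per kb; *Apoe* lies far to the right of the other members at 29173, and *Nr1h3* to their left at 2.48.

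In order of level per kb the members ran *Apoe*, *Abca1*, *Mylip*, *Nr1h2*, *Lpcat3*, *Abcg1*, *Scarb1* and *Nr1h3*. Among the 6 with reads per library, 2 pairs of neighbours had ranges over libraries that overlapped. *Mylip*, at 272 to 341 per kb, exceeded *Nr1h2*, at 243 to 285, in 3 of 4 libraries. *Abcg1*, at 15.4 to 28.8, exceeded *Scarb1*, at 14.7 to 22.9, in 4 of 4, by 1.01 to 1.55 times. *Lpcat3*, at 137 to 173, lay between and apart from both pairs, and *Nr1h3*, at 0.322 to 5.06, lay below. Both overlapping pairs change places when the longest transcript replaces the union of exons as length, so neither order is firm.

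The libraries differed by more than sampling noise in all 5 members that could be tested, which is not particular to them. Spread was measured as an index of dispersion, the chi-square of a gene's 4 read numbers against the size factors divided by 3, which is near 1 when libraries differ only by sampling. Over the 10238 genes with a mean from 10 to 1000, 5455 or 53.3% passed an adjusted p under 0.05 (chi-square test, Benjamini-Hochberg over all 10238), and the median index was 3.34. Among tested genes of like mean, the share that passed ran from 45.8% for *Abcg1* to 76.5% for *Mylip*. This test compares libraries and not conditions, and PCR copies count as reads. *Nr1h3* had too low a mean for it, and with no minimum mean its index was 4.73 with an adjusted p of 0.00959.

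**Figure D2:**
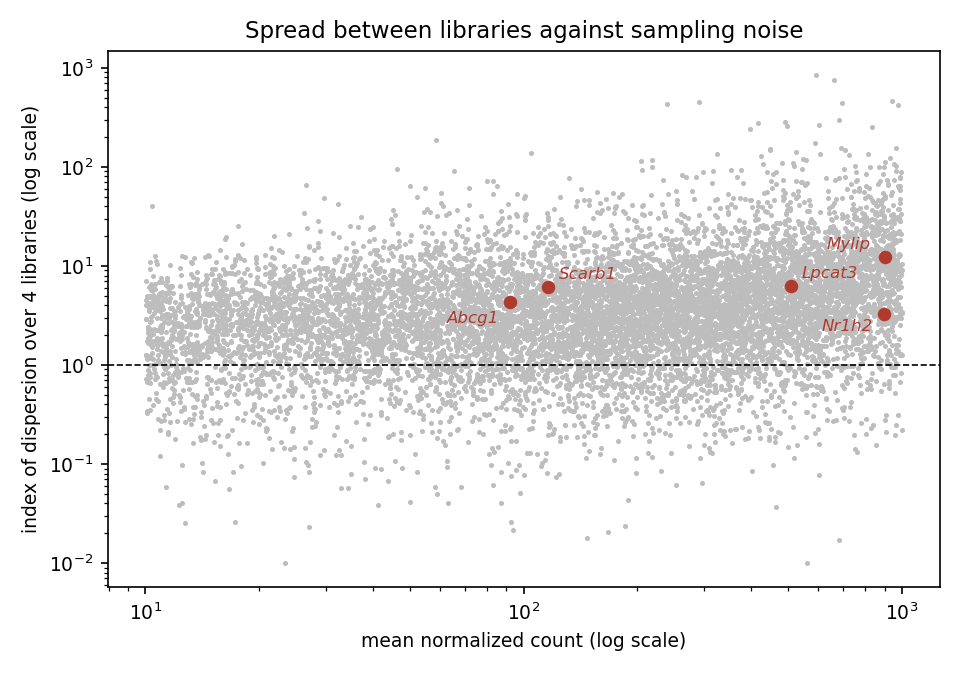
Index of dispersion over the 4 libraries against the mean normalized count, both on log axes, for the 10238 genes with a mean from 10 to 1000 (grey, values under 0.01 drawn at 0.01) and 5 members (red). The dashed line at 1 marks sampling noise; the members run from 3.27 for *Nr1h2* to 12.2 for *Mylip* and lie within the cloud of genes of like mean.

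*Mylip* had 613 reads in A, 846 in B, 980 in C and 1293 in D, or 856, 875, 831 and 1046 normalized. D stood above the other 3, which lay within their counting error of each other. Its index was 12.2 with an adjusted p of 5.08e-07, at percentile 69.1 of the 862 tested genes of like mean (within a factor of 1.25). Without D the index was 0.614 and the adjusted p 0.645, so the call rested on that library.

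*Scarb1* had 69, 127, 170 and 114 reads, or 96.3, 131, 144 and 92.2 normalized in A to D. B and C were high and A and D low, with a highest value 1.56 times the lowest. The index was 6.09 with an adjusted p of 0.00136, at percentile 78.7 of genes of like mean. The call held with each library left out in turn, with adjusted p from 0.0012 to 0.0482.

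*Lpcat3* showed the same libraries high and low. Its reads were 320, 545, 653 and 585, or 447, 564, 554 and 473 normalized, and the highest library was 1.26 times the lowest. The index was 6.24 with an adjusted p of 0.00114, at percentile 60.2 of genes of like mean, and it too passed without any single library.

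*Abcg1* had 45, 113, 113 and 114 reads, or 62.8, 117, 95.9 and 92.2 normalized. A was the lowest library and B the highest, 1.86 times above it. Its index was 4.30 with an adjusted p of 0.0119, at percentile 66.1 of genes of like mean. The call was lost without A (adjusted p 0.232) and without B (0.0894). *Nr1h2* was the steadiest of the 5, with a highest value 1.17 times the lowest, an index of 3.27 at percentile 25.1 of genes of like mean and an adjusted p of 0.0398. It no longer passed without A (0.412) or without C (0.159).

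**Figure D3:**
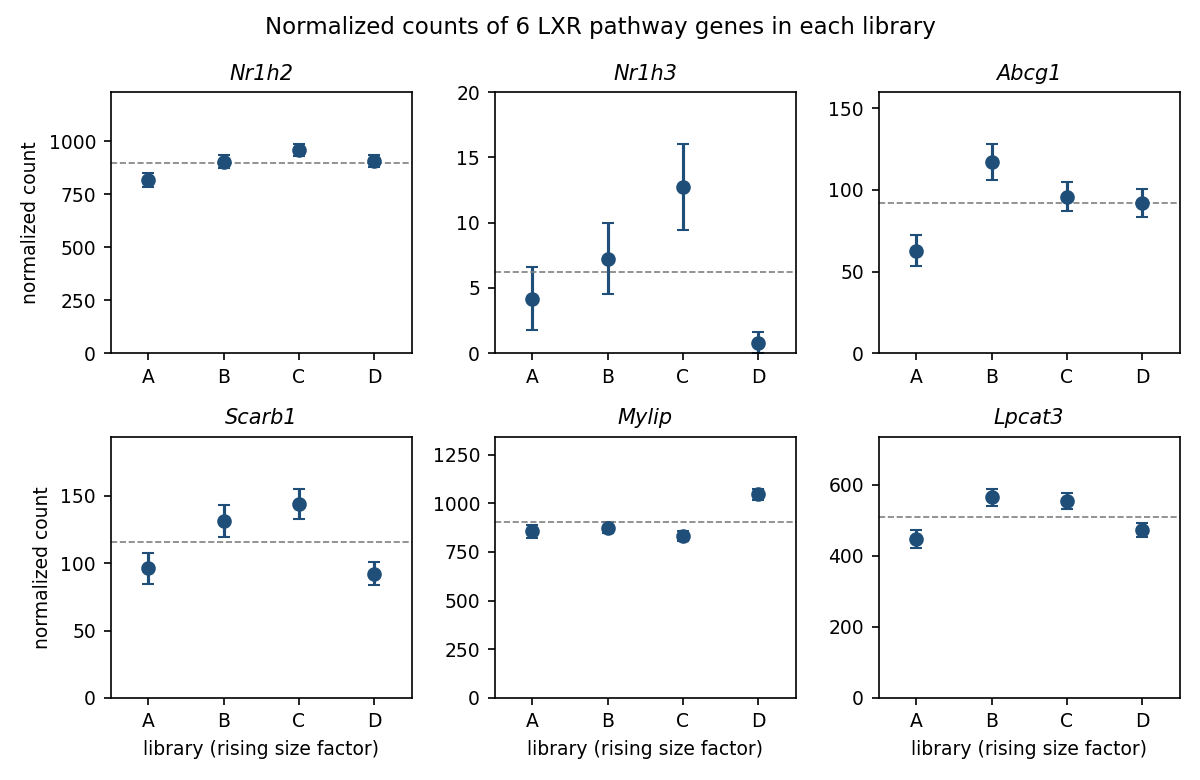
Normalized counts (recovered reads over the size factor) of 6 members in libraries A to D, 1 panel per gene, each axis starting at 0. Bars are the square root of the reads over the size factor, that is counting error, and the dashed line is the mean; *Scarb1* and *Lpcat3* are higher in B and C, *Mylip* stands out in D with 1046, and *Abcg1* is lowest in A with 62.8.

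Markers of other cells also differed between the libraries, and not all lists in the same way. The summed normalized counts of 6 of 7 myeloid markers were 600, 1151, 1428 and 691 in A to D, high in B and C. *Scarb1* and *Lpcat3* were also high in B and C, with *Scarb1* highest in C and *Lpcat3* in B. *Nr1h3* had 3, 7, 15 and 1 reads, too few to place B above A. How many of all genes were high in B and C was not counted, so no likeness is drawn from these 4 libraries. Of the myeloid sums *Lyz2* gave the largest part, with 272, 523, 769 and 234, and *Cx3cr1* had 0, 0, 1 and 1 reads. Without *Lyz2* the other 5 summed to 328, 628, 659 and 458, again highest in C and lowest in A. *Cd68* among them had 120, 241, 203 and 217, highest in B and with D above C. The 6 sebaceous gland markers summed to 769, 1659, 1406 and 1004, most of it from *Plin2*, a lipid droplet coat protein of many cell types. The other 5 summed to 127, 253, 352 and 125, high in B and C, and *Mc5r* among them had 1 to 4 reads. Melanocyte markers (3 of 4) summed to 257, 1573, 562 and 591 in A to D, and endothelial markers (3 of 3) to 39.1, 113, 91.6 and 92.2. Fibroblast markers (3 of 6) summed to 593, 1078, 767 and 1038, high in B and D. Suprabasal markers (1 of 3, *Lor*) had 187, 1183, 623 and 422. Each of these sums was lowest in A and highest in B. Without *Pecam1* the other endothelial markers summed to 19.5, 55.9, 50.9 and 63.9, highest in D. Melanocyte markers without *Dct* and fibroblast markers without *Dcn* stayed highest in B, whereas *Dcn* itself had 799 in B and 821 in D. Of the adipocyte markers, *Fabp4* had 3, 79, 37 and 36 reads in A to D, whereas the defining markers were near 0, *Adipoq* with 1 read in all and *Plin1* with 1, 0, 2 and 0. The part of these cells in the levels or the spread of the members was not tested. *Apoe* and *Abca1* have no reads per library here and could not be set beside the markers.

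**Figure D4:**
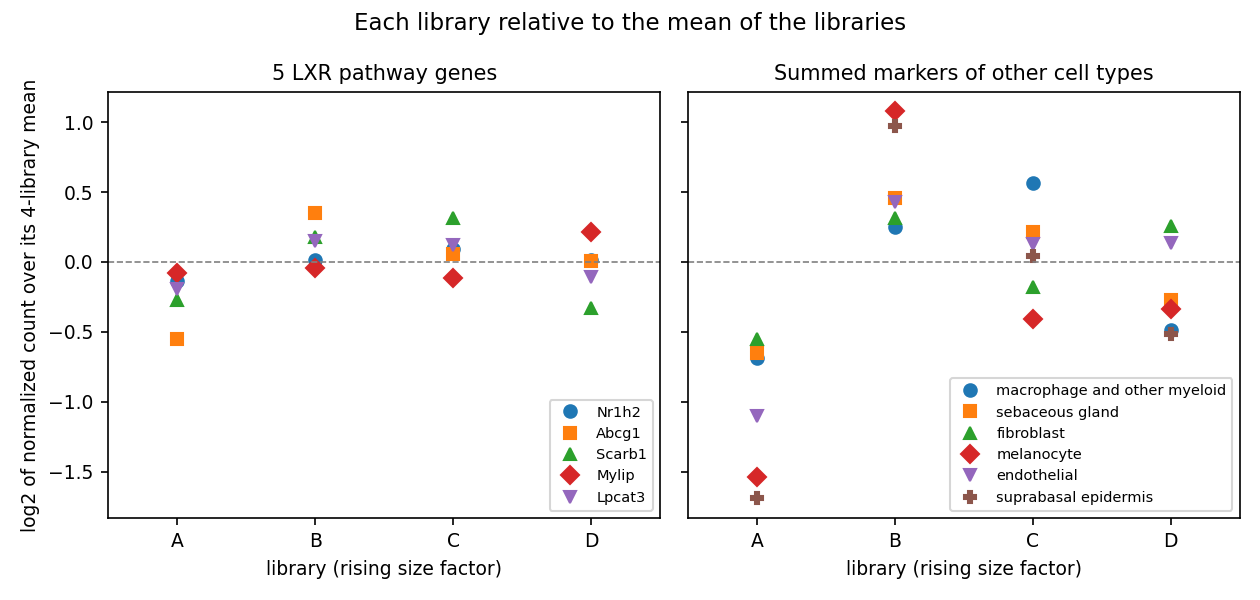
Each library's normalized count relative to the mean of the 4 libraries, on the log2 scale, for 5 members (left) and for summed markers of 6 other cell types (right), with 1 symbol per gene or list. All 6 lists are lowest in A, where *Abcg1* stands at -0.55 and *Scarb1* at -0.27, and the suprabasal list is 1 marker, *Lor*. *Scarb1* reaches 0.31 in C, the library in which myeloid markers reach 0.56 and sebaceous gland markers 0.22, the latter being highest in B at 0.46.

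Across the rest of the pathway the share of genes with such a spread varied by list. All 3 tested genes of the RXR and coregulator list passed, as did 4 of 4 further LXR target genes and 3 of 5 acyltransferases related to *Lpcat3*. Of the sterol transport and storage genes 4 of 8 passed, and of the receptors marked by *Mylip* 1 of 2. Of the enzymes that make or clear oxysterols, the ligands of LXRs, 0 of 3 passed by the chi-square test and none had an unadjusted p under 0.05, which does not show that they were alike. *Cyp27a1*, which makes 27-hydroxycholesterol, had 268, 284, 258 and 243 normalized in A to D. *Ch25h* and *Cyp46a1*, which make 25- and 24-hydroxycholesterol, had means of 82.9 and 139. *Ch25h* had 72.6, 99.3, 79.7 and 80.1, a highest library 1.37 times the lowest, and *Cyp46a1* had 131, 131, 165 and 127, both at fewer reads than *Lpcat3* or *Mylip*. *Cyp7b1*, which clears oxysterols, had 11 reads in all. With so few genes a list, these shares are set beside the 53.3% of all genes as a description. They include library A, and the counts by list were not repeated without it. Over all genes 47.2% passed without A. The index of the tested RXRs and coregulators was then 3.13 to 10.6, against 4.25 to 7.82 with A. For the sterol transport and storage genes that passed it was 2.49 to 30.8, against 4.25 to 32.6. The share that passes also depends on the mean, at 45.8% of genes of like mean to *Abcg1* and 76.5% for *Mylip*. Tested genes of the RXR and coregulator list had means of 706 to 905, and the tested oxysterol enzymes 82.9 to 263.

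Reads shared between genes could touch 2 members. The exons of *Lpcat3* share 38 bases, 1.16% of their length, with *Emg1* on the opposite strand, and those of *Nr1h3* share 34 bases, 1.35%, with *Gm13783* on its own strand. The strand setting of the counting is not given in the sources used here.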

How the data were processed

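Per the labels and the methods, the authors mapped 150-nt read pairs by HISAT2 (2.1.0) to mm10, which the methods also call NCBI37, another build. They then used SAMtools (1.3.1), HTSeq for counting and default DESeq2 (strand setting, annotation and further versions: not given in the sources used here). The deposited mean is a signal, the mean over 4 libraries of the count divided by the size factor. The other 5 columns hold the authors' comparison (fold change, its error, a statistic, p and adjusted p) and were not used.

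Means shared by genes read once gave the size factors, and whole reads were searched for every mean up to 1000 at its 15 printed digits. Levels per kb used the union of exons of GENCODE vM1, matched for 95.9% of genes above 0, and all places are on GRCm38.p6 because the table has none. The steps were tested on simulated data. The methods describe pairs of control and inducible mice with littermate controls, but the values used here are tied to no mouse, so their spread mixes animals, groups and technical error.

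The genes named are the members, the ends of the listed groups and relatives of the members, and a few listed genes are not reported here. Members and lists were chosen with earlier results of these data known. A planned protein alignment was not run. Alternatives were other lengths, tolerances, minimum means, scalings and motif lengths, and each library left out. Software was numba 0.67.0, matplotlib 3.10.9, scipy 1.17.1, pandas 2.3.3 and numpy 2.4.6 under Python 3.11.15.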

Additional observations from a re-analysis of the deposited data

How the results depend on the processing

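No paired analysis was possible because the values of the 4 libraries carry no replicate number or group. The whole reads of the 6 members were the only fit at the main tolerance and at 4 times it. When each library had to lie within a factor of 4 of the mean, *Nr1h3*, whose value in D lies below that range, had no fit and 11331 of 14591 genes had 1. The number of genes whose libraries differed was 5455, and it was 5475 with totals of recovered reads in place of size factors, 5825 with no minimum mean, 4519 with a minimum of 50 and 3694 to 4835 with 1 library left out. *Nr1h2* missed the cutoff with totals (adjusted p 0.0511) and with no minimum mean (0.0507). No order of the 6 members by median level per kb turned with 1 library left out. Over all 8, 2 pairs turned with the longest transcript and 4 with the shortest coding transcript, whose length in *Scarb1* is 339 bases. Percentiles among genes with a mean over 50 were lower, from 12.4 for *Abcg1* to 99.8 for *Apoe*. Lengths for ratios, sums without 1 marker and other genes without 1 library were added after the data were seen. Without division by length, list medians over that of all genes were 9.91 for RXRs and coregulators, 2.84 for other LXR targets, 1.63 for transport and storage, 0.947 for oxysterol enzymes, 2.87 for receptors marked by *Mylip*, 1.28 for relatives of *Lpcat3* and 4.48 for relatives of *Scarb1*, against 3.72, 2.46, 1.54, 1.61, 0.809, 1.33 and 6.19 per kb. Of the 6 members with a promoter, a DR4 match was found in 0 with 1 or 2 differences and in 1 with 3. Of the *miR-205* matches, ATGAAGG (7 bases) and ATGAAGGA (8 bases) were found in 0 members and TGAAGG (6 bases) in 2. The form TGAAGGA, which both windows show, was not searched for. Depth limits *Nr1h3*, at 1 to 15 reads a library.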

Other observations

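The next genes were singled out after their values were seen. *Vldlr*, a lipoprotein receptor that *Mylip* marks for degradation, had the highest index of dispersion, a measure that grows with the mean, among the listed pathway genes with reads per library. It had 413, 196, 89.9 and 234 normalized counts in A to D, a highest value 4.60 times the lowest, with an index of 73.6. Without A the ratio was 2.60 and the index 38.2, and without C 2.11 and 40.7. By that ratio *Cd36* was higher, at 5.19, with 8, 56, 55 and 44 reads, and 1.63 without A. For *Vldlr*, A was the highest library and C the lowest, whereas *Mylip* stood apart in D.

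*Pltp*, a phospholipid transfer protein and LXR target, had 687, 747, 869 and 470 normalized counts, with an index of 48.8, or 10.6 without D. *Lpl*, the lipoprotein lipase, had 54.4, 66.2, 149 and 72.0, with an index of 22.3, or 1.06 without C. *Soat1*, which esterifies cholesterol for storage, had 195, 329, 411 and 230, with an index of 32.6, or 16.9 without C. All 3 were highest in C. *Scarb1*, the summed myeloid markers and the summed sebaceous gland markers without *Plin2* were also highest there, whereas the myeloid markers *Cd68* and *Adgre1* were highest in B. In contrast *Apoc1*, with 610, 617, 501 and 582, and *Smpdl3a*, with 708, 722, 609 and 663, were lowest in C, with an index of 5.24 and 4.03, or 0.611 and 1.51 without C. The part of other cell types in these values was not tested.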
